A study of Mus musculus with 18 samples.

Results

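The genes described here encode the proteins of the cytosolic ribosome. They were chosen by name: every gene on the array whose annotated symbol starts with Rpl or Rps and a number, or is *Rplp0*, *Rplp1*, *Rplp2* or *Rpsa*, was a member. The rule left out the S6 kinase genes, pseudogenes, *Rpl3* and *Rpl3l*. It found 57 members among the 17708 genes with a symbol, 37 of the large subunit and 20 of the small subunit. The rule is literal and also takes *Rps19bp1*, a regulator of the deacetylase SIRT1, and *Rps23rg1*, a retrogene of *Rps23*, neither of which is a ribosomal subunit gene. Each member was read through its brightest probe. Of the 57 members, 39 had 1 probe and 18 had more, so that 84 probes read them in all. Ribosomal protein genes without a named probe were not analysed here.

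The study asked which genes change when dystrophin, the protein that links the muscle cytoskeleton to the membrane, is removed from myotubes by RNA interference. Primary myoblasts were taken from the limb muscles of C57BL/10 mice aged 3 to 5 days, given siRNA on days 2 and 4, moved to differentiation medium on day 4 and harvested on day 6. RNA was hybridized to Illumina MouseWG-6 v1.1 bead arrays, 1 array per culture, in 4 cultures left untreated, 7 treated with a control siRNA for the firefly luciferase GL2, which has no mouse target, and 7 treated with dystrophin siRNA. The siRNA was delivered with the transfection reagent Oligofectamine, and no group received the reagent alone. The knockdown is transient, acts in every cell that takes up the siRNA and rests on a single dystrophin siRNA. Cells of different mice were mixed on each of 4 occasions, so cultures of an occasion share a cell mixture. The sources used here do not say which arrays belong to each occasion.

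A ribosome joins a small subunit, which reads the mRNA, to a large subunit, which makes the peptide bond and carries the exit tunnel. Each subunit holds ribosomal RNA and a fixed set of proteins, nearly all in a single copy, and a protein made in excess of its partners is degraded. Ribosomal protein mRNAs are among the most abundant in any growing cell. They belong to the 5′TOP class, whose transcripts begin with a C followed by an unbroken run of pyrimidines, and their translation is controlled through that run by mTOR signalling and the RNA-binding protein LARP1. Muscle cells lower ribosome production as they leave the cell cycle and raise it again when they grow.

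The start sites are shown because the pyrimidine run at the start is the hallmark of this class of mRNAs. RefSeq promoter windows (GRCm38.p6) covered 46 of the 57 members with 56 windows. A run of at least 8 pyrimidines on the sense strand that covered the annotated start stood in 14 of the 56 windows (25%), each from a different member, and in 3.86% of all 32851 windows. Each line gives the name, the position and 30 bases of the sense strand, 15 before the start and 15 from it on, with the run in capitals. The first 3 belong to bright members that hold a run, and the rest to members that the comparisons turn on.
Rpl35, chr2:39005117-39005146, minus strand: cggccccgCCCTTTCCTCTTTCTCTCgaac
Rps18, chr17:33955651-33955680, minus strand: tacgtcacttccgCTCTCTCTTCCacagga
Rps9, chr7:3704026-3704055, plus strand: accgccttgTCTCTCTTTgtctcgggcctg
Rpl27a, chr7:109519180-109519209, plus strand: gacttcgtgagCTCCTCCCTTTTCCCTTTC
Rps13, chr7:116334176-116334205, minus strand: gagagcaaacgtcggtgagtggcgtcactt
Rpl9, chr5:65391417-65391446, minus strand: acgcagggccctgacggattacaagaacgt
Rpl11, chr4:136053379-136053408, minus strand: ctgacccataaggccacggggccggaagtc
Of these windows *Rpl27a* had the longest run, of 20 pyrimidines, which goes on past the printed end. *Rps13*, *Rpl9* and *Rpl11* had no run of at least 8 across the annotated base, which says only that these letters are not in that place in the RefSeq model.

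A few other motifs were looked for on both strands of the full windows, 250 bases before the start and 50 from it on. The ETS-type letters CCGGAAGT stood in 14.29% of the windows of members and 3.887% of all windows. AAGATGGC, the core of the YY1 motif, stood in 14.29% against 2.749%. The TATA letters TATAAA stood in 10.71% of the windows of members and 13.62% of all. The motifs were searched for separately, so that matches may overlap, and a match is a description of the letters, not a site. *Rpl21* and *Rps20*, which the comparisons also turn on, were not matched in the promoter table.

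The labels and the dystrophin transcript were checked before the members were compared. *Dmd*, the target of the siRNA, was at log2 levels of 10.25, 10.05, 10.26 and 10.32 on untreated arrays 1 to 4, between 10.03 and 10.51 (median 10.36) with GL2 siRNA, and between 8.07 and 8.52 (median 8.32) with dystrophin siRNA. All 7 dystrophin siRNA arrays thus lay below all 11 others. Between 17551 and 18530 probes were detected per array at a detection p under 0.05. The mean level of 8 myotube markers lay between 13.68 and 13.75 in untreated, 13.73 and 13.83 in GL2 siRNA-treated and 13.60 and 13.78 in dystrophin siRNA-treated myotubes. All 8 were detected, and 2 of them were lower with dystrophin siRNA than with GL2 siRNA: *Ckm*, the muscle creatine kinase, with a change of -0.92 on the log2 scale, and *Tnnt3*, fast troponin T, with -0.30. The other 6 did not pass, at 0.35 for *Myog*, 0.13 for *Actc1*, 0.08 for *Myh8*, 0.04 for *Tnnc2*, 0.02 for *Acta1* and -0.15 for *Des*. The median of the 8 was 0.03. The mean of 8 fibroblast markers, all detected, ranged from 11.63 to 11.85, from 10.89 to 11.77 and from 11.15 to 12.03 in the same order of groups, with none past the test. The 4 macrophage markers with a probe, 2 of them detected on no array, had a mean of 7.13 to 7.26, 6.25 to 7.15 and 6.39 to 7.29. The 6 proliferating-cell markers with a probe, all detected, had a mean of 8.91 to 9.27, 9.18 to 9.40 and 9.32 to 9.42. Every dystrophin siRNA array stood above every untreated array for that mean, with untreated array 1 the lowest, and none of the 6 genes passed the test. The part of these cells in the results was not tested.

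Most members were bright on the probe that read them, which was picked as the brightest of its gene. On all 18 arrays 49 of the 57 were detected, and 51 on at least 4. Of the 27 other probes of the members, 16 were detected on all arrays and 7 on none. The picked probes made up 14 of the brightest 100 probes of the array, 23 of the brightest 200 and 32 of the brightest 500. Other probes of the members, bright ones of *Rps9* and *Rps20* among them, were left out of these counts and of the shares that follow. Through the picked probes the members together held between 3.19% and 3.70% of the summed signal of an array. The median share was 3.62% in untreated, 3.49% in GL2 siRNA-treated and 3.56% in dystrophin siRNA-treated myotubes, and the ranges of the 3 groups overlapped. The probes with the highest mean level were those of *Rps14*, *Rpl13*, *Rpl37*, *Rps20* and *Rps29*, and the brightest member reached 74.4% to 91.7% of the highest signal on its array. An array signal depends on the probe as well as the transcript, so no order of abundance between genes is read from these values.

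At the other end, 5 members were detected on no array: *Rpl17* and *Rpsa*, subunit proteins that every ribosome contains, the retrogene *Rps23rg1*, and the paralogues *Rpl39l* and *Rpl36al*. *Rpl4* was detected on 1 array and *Rplp2*, a protein of the stalk that recruits translation factors, on 7. Their probes give no usable level in these cells and no fold change is given for them. The sequences of the probes were not used here, so it was not tested where in the transcript each probe lies.

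The comparison of dystrophin siRNA-treated with untreated myotubes asked whether removal of dystrophin moved the ribosomal protein mRNAs. Transfection and the loss of dystrophin cannot be told apart in it. No member passed limma's moderated test at a Benjamini-Hochberg adjusted p under 0.05, where 0.907% of all 46632 probes did (0.277% higher and 0.63% lower). An unadjusted p under 0.05 was reached by 3 members (*Rps13*, *Rpl36al* and *Rpl39l*), 5.26% of the 57 against 9.36% of all probes, and only *Rps13* of these was detected. The median change over the members was -0.04 on the log2 scale, with quartiles of -0.09 and 0.03, beside 0.01 over all probes. It was -0.02 over the 49 members detected on all arrays, and -0.01 over the 57 with the array number as a block. Of the 57 members, 20 had a fitted change above 0, beside 52.7% of all probes. The large subunit members had a median of -0.05 and those of the small subunit 0.01. Both take in undetected members, and the latter also *Rps19bp1* and *Rps23rg1*. Of the 49 members detected on all arrays, 18 had a change above 0. The groups did not overlap for 2 members, *Rpl9* and *Rps20*, both higher with dystrophin siRNA, beside 2.59% of all probes (1.13% higher and 1.45% lower).

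Between GL2 siRNA-treated and untreated myotubes the reagent, the handling and a siRNA without a mouse target cannot be told apart. No member passed the test here either, where 0.733% of all probes did (0.339% higher and 0.395% lower). Before adjustment 3 members had a p under 0.05 (*Rps13*, *Rpl21* and *Rps20*) beside 11.1% of all probes. The median change was -0.05, with quartiles of -0.10 and 0.07, against 0.01 over all probes, and 20 members had a change above 0, beside 52.2% of all probes. The groups did not overlap for 3 members, with *Rps13* and *Rps20* higher and *Rpl11* lower, beside 2.99% of all probes (1.47% higher and 1.51% lower). Of the 19437 detected probes, 1.65% passed, 17.8% had an unadjusted p under 0.05 and 6.25% had groups without overlap. The median was -0.04 over the 49 members detected on all arrays and -0.02 over the 57 with the array number as a block. This comparison shares its untreated arrays with the one above.

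The direct comparison set dystrophin siRNA against GL2 siRNA. Effects of either siRNA beyond its target cannot be told apart in it from the loss of dystrophin. In it 3.76% of all probes passed the test (1.6% higher and 2.16% lower) and 0 of the 57 members did. At an unadjusted p under 0.05 there were 3 members (*Rpl21*, *Rpl22* and *Rpl27a*), all lower with dystrophin siRNA, beside 13.8% of all probes. The median change over the members was 0.01, with quartiles of -0.06 and 0.04, beside 0.00 over all probes, and 31 of the 57 were above 0, beside 50.7% of all probes. No member had groups without overlap, beside 2.19% of all probes (0.926% higher and 1.26% lower). Of the 19437 detected probes, 8.27% passed, 24.3% had an unadjusted p under 0.05 and 5.06% had groups without overlap. In RNA from whole cultures, fewer cells of a type and less RNA per cell cannot be told apart, here and in all other comparisons.

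The 95% intervals show what size of change these arrays could have missed, if the arrays are independent. They come from the fit without a block, although cultures of an occasion share a cell mixture. Of the 49 members detected on all arrays, 42 had an interval within a 1.3-fold change in either direction between dystrophin siRNA and untreated, 41 between GL2 siRNA and untreated, and 45 between the siRNAs. Within a 1.5-fold change lay 48, 47 and 49 of them. For the 32 members with a mean signal above 15000 the intervals were tighter. Their fitted changes between the siRNAs ran from -0.05 to 0.13, and no interval reached below -0.21 or above 0.27. Bright probes near the top of the scale of an array may compress changes, and this was not tested.

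**Figure D1:**
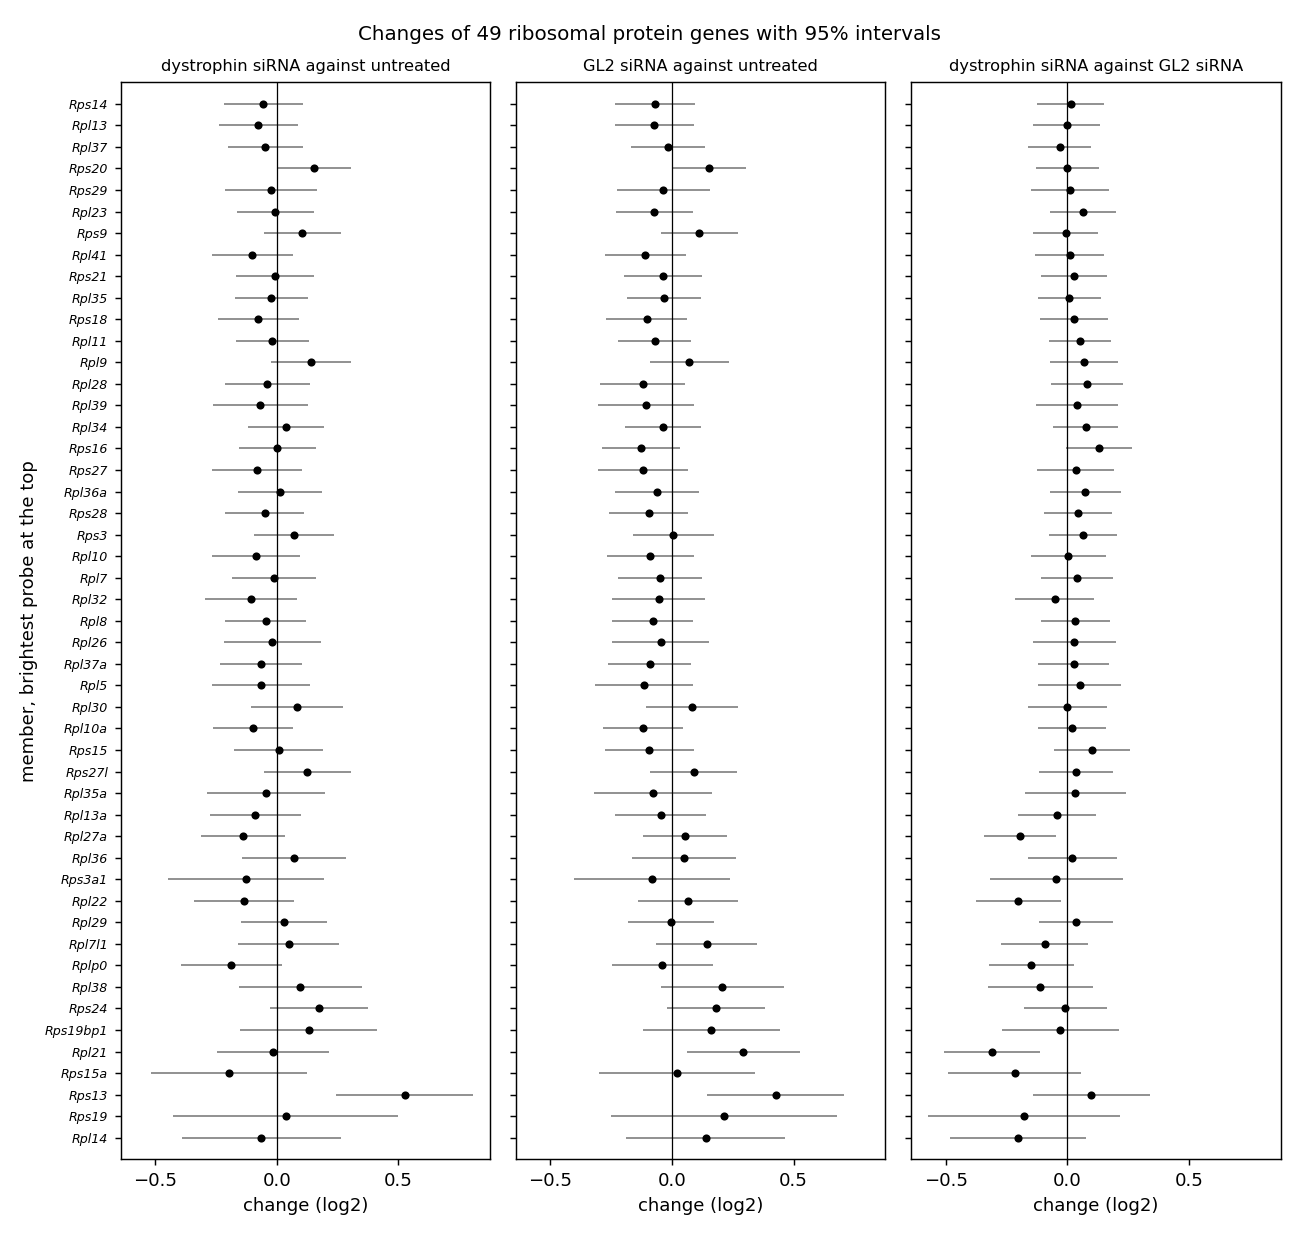
Fitted log2 change (horizontal axis) of the 49 members detected on all 18 arrays, brightest at the top, in the 3 comparisons; points are limma estimates and lines 95% intervals. Most intervals span 0 and lie within a 1.3-fold change, and the intervals widen towards the dim probes at the bottom, where *Rps13* and *Rpl21* stand furthest from 0.

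Large subunit members are taken first. *Rpl21*, a protein of the large subunit whose gene lies on chromosome 5, was read by 3 probes, all detected on every array. On its brightest probe the untreated arrays 1 to 4 gave log2 levels of 8.48, 8.21, 8.28 and 8.40. The GL2 siRNA arrays lay between 8.39 and 8.92 with a median of 8.63, and the dystrophin siRNA arrays between 8.13 and 8.58 with a median of 8.35. The GL2 siRNA arrays were thus the high group, with arrays 5 and 6 the highest, while untreated and dystrophin siRNA arrays covered the same range. Between the siRNAs the change was -0.31 (SE 0.09), which did not pass (limma, adjusted p = 0.082). With the array number as a block it passed (limma, adjusted p = 0.047), as did 2428 of all 46632 probes.

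The other *Rpl21* probes gave a wider separation. On the second brightest probe the untreated arrays were at 7.42, 7.55, 7.53 and 7.51, the GL2 siRNA arrays between 7.60 and 8.01 (median 7.70) and the dystrophin siRNA arrays between 7.12 and 7.58 (median 7.29). Every GL2 siRNA array lay above every other array on this probe. The change between the siRNAs was -0.42 (SE 0.09, limma adjusted p = 0.012). On the third probe the untreated arrays were at 7.37, 7.27, 7.44 and 7.27, the GL2 siRNA arrays between 7.34 and 7.85 (median 7.62) and the dystrophin siRNA arrays between 6.90 and 7.37 (median 7.09). Here GL2 and dystrophin siRNA arrays overlapped narrowly, and the change was -0.46 (SE 0.10, limma adjusted p = 0.011). These were the only probes of any member, of 27 beyond the brightest, that passed in any of the 3 comparisons. Between the siRNAs 3.76% of all probes passed, and 8.27% of those detected on at least 4 arrays. Among the 27 only the second *Rpl21* probe had siRNA groups without overlap, beside 2.19% of all probes and 5.06% of detected ones.

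Against untreated myotubes no *Rpl21* probe passed. The GL2 siRNA changes were 0.29, 0.26 and 0.25 from the brightest to the dimmest probe, with limma adjusted p of 0.30, 0.38 and 0.44. The dystrophin siRNA changes were -0.02, -0.16 and -0.20, with adjusted p of 0.98, 0.73 and 0.65. The difference between the siRNAs thus summed a higher level with GL2 siRNA and, on the dimmer probes, a lower fitted level with dystrophin siRNA, neither of which passed by itself. Leaving out each of the 18 arrays in turn, the second and the third probe kept the call in 18 of 18 fits, and the brightest probe gained it in 2. *Rpl21* has many processed pseudogenes, as ribosomal protein genes do in general, and whether their transcripts bind these probes was not tested.

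Array number also moved with this result. The arrays were divided into 4 sets, known from earlier results of these data and not from the labels: set 1 holds array 1 of each group, and sets 2, 3 and 4 hold untreated array 2, 3 or 4 with siRNA arrays 2 and 3, 4 and 5, or 6 and 7. In set 1, with 1 array per group, the 3 *Rpl21* probes differed between the siRNAs by -0.03, -0.03 and -0.01. In sets 2, 3 and 4 the brightest probe differed by -0.33, -0.31 and -0.43, the second probe by -0.50, -0.50 and -0.46, and the third by -0.47, -0.45 and -0.67. The cultures of set 1 therefore did not show the difference that the other 3 sets did, and a test of that contrast was not made.

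**Figure D2:**
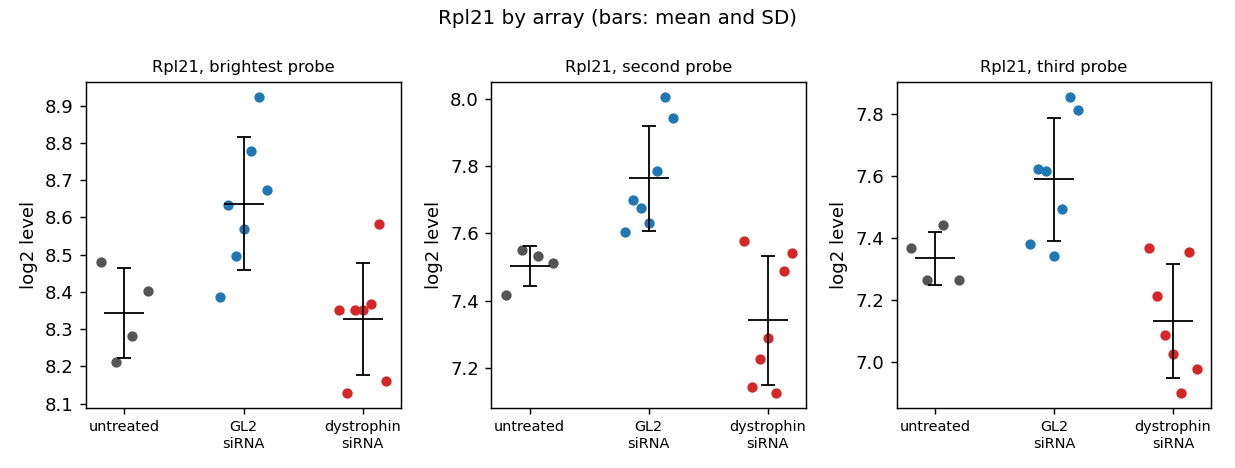
Log2 level of the 3 *Rpl21* probes on each array by group (each point is an array, ordered within a group by array number, bars are the mean and SD, and the vertical axes do not start at 0). On the second probe all 7 GL2 siRNA arrays lie above all dystrophin siRNA and untreated arrays.

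*Rpl27a* and *Rpl22* were the other members under an unadjusted p of 0.05 between the siRNAs, and both were chosen for description after their values were seen. *Rpl27a*, a large subunit protein, was at 13.01, 12.84, 12.90 and 12.93 on the untreated arrays, between 12.83 and 13.11 (median 13.02) with GL2 siRNA and between 12.69 and 12.90 (median 12.77) with dystrophin siRNA. Its siRNA groups overlapped, and its change between them was -0.19 (SE 0.07, limma adjusted p = 0.18). The other *Rpl27a* probe, detected on 16 arrays, had a change of 0.16 with an adjusted p of 0.81. *Rpl22*, a large subunit protein that also binds RNA outside the ribosome, was at 12.03, 12.07, 12.22 and 12.24 on the untreated arrays, between 12.04 and 12.45 (median 12.14) with GL2 siRNA and between 11.91 and 12.08 (median 12.05) with dystrophin siRNA. GL2 siRNA arrays 3, 5, 6 and 7 stood above all dystrophin siRNA arrays, and the other GL2 siRNA arrays did not. The change was -0.20 (SE 0.08, limma adjusted p = 0.26).

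*Rpl9*, a large subunit protein, and *Rpl11*, which forms a particle with *Rpl5* and 5S RNA that binds the p53 regulator MDM2 when ribosome assembly fails, had groups without overlap at small sizes of change. *Rpl9* was at 15.08, 15.07, 15.11 and 14.95 on the untreated arrays and between 15.11 and 15.26 (median 15.22) with dystrophin siRNA, with GL2 siRNA at 14.98 to 15.24 (median 15.13). The lowest dystrophin siRNA array stood just above the highest untreated array, and the change was 0.14 (SE 0.08, limma adjusted p = 0.62). *Rpl11* was at 15.15, 15.18, 15.15 and 15.19 on the untreated arrays and between 15.02 and 15.14 (median 15.10) with GL2 siRNA, with dystrophin siRNA at 15.07 to 15.21 (median 15.16). Its change with GL2 siRNA was -0.07 (SE 0.07, limma adjusted p = 0.78).

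Bright large subunit members such as *Rpl35* and *Rpl13* show the usual pattern of the family. *Rpl35*, a protein at the mouth of the exit tunnel whose start window holds a pyrimidine run, was at 15.23, 15.22, 15.36 and 15.29 on the untreated arrays, between 15.17 and 15.29 (median 15.24) with GL2 siRNA and between 15.20 and 15.35 (median 15.24) with dystrophin siRNA. *Rpl13* was at 15.57, 15.50, 15.59 and 15.55 on the untreated arrays, between 15.38 and 15.62 (median 15.49) with GL2 siRNA and between 15.39 and 15.57 (median 15.47) with dystrophin siRNA. The 3 groups overlapped for both genes, and their fitted changes ran from -0.08 to 0.01. *Rplp0*, the base of the stalk and a common reference transcript in quantitative PCR, is a member that the rule for description did not pick, and it was added for that use. It was at 10.72, 10.32, 10.53 and 10.36 on the untreated arrays, between 10.33 and 10.63 (median 10.41) with GL2 siRNA and between 10.14 and 10.52 (median 10.27) with dystrophin siRNA. Its groups overlapped as well, and its changes of -0.19, -0.04 and -0.15 did not pass (limma, adjusted p = 0.60, 0.92 and 0.49).

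Of the small subunit members, *Rps13* had the largest fitted change among detected members. *Rps13*, on chromosome 7, was read by 1 probe of low signal that every array detected. It was at 6.47, 7.11, 7.07 and 7.18 on untreated arrays 1 to 4, between 7.23 and 7.56 (median 7.33) with GL2 siRNA and between 7.12 and 7.67 (median 7.59) with dystrophin siRNA. All GL2 siRNA arrays and 6 of 7 dystrophin siRNA arrays lay above every untreated array, and untreated array 1 stood far below the other 3. That array also had the lowest mean of the proliferating-cell markers, 8.91, whose part here was not tested. The changes were 0.53 (SE 0.14) with dystrophin siRNA and 0.43 (SE 0.14) with GL2 siRNA. Neither passed (limma, adjusted p = 0.084 and 0.19). Without untreated array 1 they were 0.36 (adjusted p = 0.32) and 0.26 (adjusted p = 0.51).

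Between the siRNAs *Rps13* differed by 0.10 (SE 0.12, 95% interval -0.14 to 0.34). In the 4 sets of arrays the difference between dystrophin siRNA and untreated was 1.15, 0.40, 0.41 and 0.21, and that between GL2 siRNA and untreated was 1.09, 0.37, 0.25 and 0.09. Its sign was the same in every set, and the size was largest in set 1, the set of the low untreated array.

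*Rps20*, a protein of the head of the small subunit, gave opposite signs on its bright probes. On the brightest probe the untreated arrays were at 15.27, 15.40, 15.35 and 15.38, the GL2 siRNA arrays between 15.46 and 15.57 (median 15.52) and the dystrophin siRNA arrays between 15.43 and 15.61 (median 15.50). Every siRNA-treated array lay above every untreated array, and the change was 0.15 (SE 0.07) with either siRNA (limma, adjusted p = 0.53 with dystrophin siRNA and 0.45 with GL2 siRNA). On the second probe the untreated arrays were at 15.47, 15.51, 15.61 and 15.59, the GL2 siRNA arrays between 15.20 and 15.53 (median 15.41) and the dystrophin siRNA arrays between 15.32 and 15.56 (median 15.44). Here the untreated arrays were the high group with overlap, and the changes were -0.11 with dystrophin siRNA and -0.16 with GL2 siRNA (SE 0.09, adjusted p = 0.78 and 0.53). The probes of this gene do not give a common direction.

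**Figure D3:**
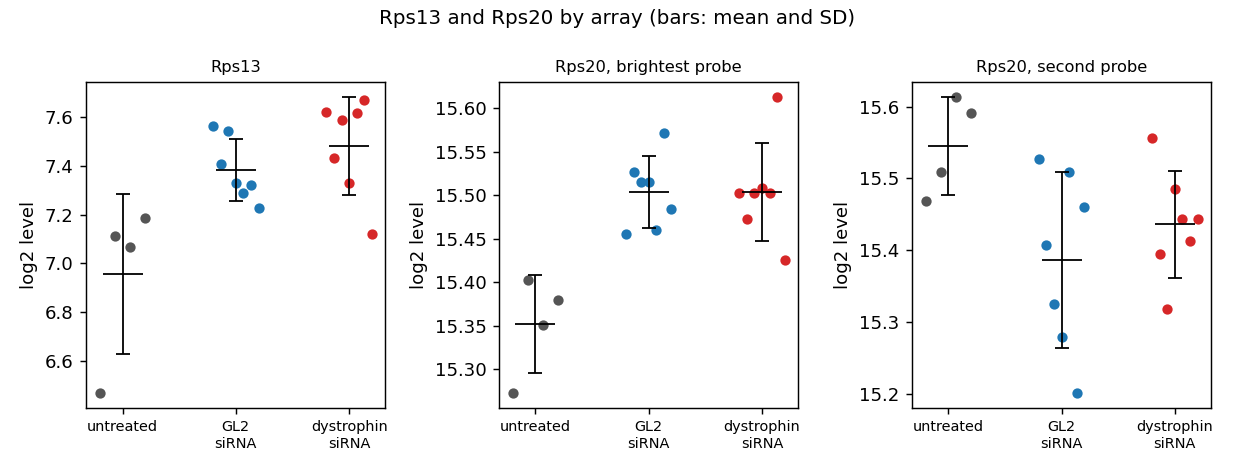
Log2 level of the *Rps13* probe and of the bright *Rps20* probes on each array by group (each point is an array, bars are the mean and SD, and the vertical axes do not start at 0). Untreated array 1 is the low *Rps13* point at 6.47, and the *Rps20* probes show untreated arrays lowest on the left and highest on the right.

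*Rps9*, a small subunit protein that was chosen for its number of probes after its values were seen, gives a further view of how far probes of a gene may differ. Its 5 probes were detected on every array. Their changes between dystrophin siRNA and untreated were 0.11, -0.05, 0.02, 0.02 and -0.22 from the brightest to the dimmest, and none passed. The probe at -0.22 also had the largest standard error, 0.14. *Rps19*, a small subunit protein mutated in Diamond-Blackfan anaemia, varied most of the members that every array detected. It was at 6.39, 6.08, 6.23 and 6.18 on the untreated arrays, between 5.93 and 7.09 (median 6.16) with GL2 siRNA and between 5.96 and 6.86 (median 6.06) with dystrophin siRNA. Arrays 6 and 7 were the highest with dystrophin siRNA, and arrays 7 and 6 with GL2 siRNA. Its changes were 0.04, 0.21 and -0.18 in the 3 comparisons, with no p near the threshold.

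Among the bright small subunit members, *Rps14*, a protein of the platform that contacts the mRNA exit site, was at 15.49, 15.55, 15.52 and 15.62 on the untreated arrays, between 15.40 and 15.52 (median 15.48) with GL2 siRNA and between 15.38 and 15.65 (median 15.45) with dystrophin siRNA. *Rps29*, a protein of the head, was at 15.53, 15.44, 15.54 and 15.43 on the untreated arrays, between 15.33 and 15.55 (median 15.46) with GL2 siRNA and between 15.18 and 15.59 (median 15.47) with dystrophin siRNA. Their groups overlapped over most of the range. The changes were -0.06, -0.07 and 0.01 for *Rps14* and -0.02, -0.04 and 0.01 for *Rps29*, with limma adjusted p from 0.80 to 0.98.

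Paralogues replace the common form of a ribosomal protein in some tissues. Of the 5 on the array, *Rps27l*, a p53 target, *Rpl7l1* and *Rpl22l1* were detected on at least 4 arrays, and none passed the test. *Rps27l* was at 13.86, 13.81, 13.79 and 13.95 on the untreated arrays, between 13.83 and 14.13 (median 13.93) with GL2 siRNA and between 13.83 and 14.14 (median 13.96) with dystrophin siRNA, ranges that overlap. *Rpl7l1* changed by 0.05, 0.14 and -0.09 in the 3 comparisons (SE 0.10, 0.10 and 0.08) on the brightest of its 3 probes, all detected on every array. The second brightest gave 0.22, 0.38 and -0.16, with a limma adjusted p of 0.19 for GL2 siRNA against untreated, and the third 0.01, 0.08 and -0.07. *Rpl22l1*, whose mRNA is repressed by the *Rpl22* protein in mice, was at 5.85, 6.63, 5.93 and 5.98 on the untreated arrays, between 5.12 and 6.54 (median 6.21) with GL2 siRNA and between 4.84 and 6.53 (median 5.78) with dystrophin siRNA. The groups overlapped over most of their range. Its change of -0.49 with dystrophin siRNA came with an SE of 0.31 and an adjusted p of 0.69, and 16 of 18 arrays detected it.

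*Fau*, whose product is cut into a ubiquitin-like protein and a small subunit protein, is not a member because its symbol starts otherwise, and was read by a probe that all arrays detected. It changed by 0.05, -0.11 and 0.16 in the 3 comparisons, and the last value had an unadjusted p of 0.035 and an adjusted p of 0.30.

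The spread of the members within groups depended on their level and on the scaling. Over the 49 members detected on all arrays the median SD between arrays of a group was 0.09 on the log2 scale, beside 0.22 over the 19437 probes detected on at least 4 arrays. Dim probes vary more, so the 30 of them above a log2 level of 14 were set beside the 230 other probes above it: the medians were 0.08 and 0.10. With median centring the SD of the 49 members was 0.14, and the bright members and other bright probes stood at 0.12 and 0.13. With no normalization these bright medians were 0.13 and 0.13, and with no background correction the SD of the detected probes was 0.13 in place of 0.22. *Rpl11* (0.04), *Rpl35* (0.05), *Rps20* (0.05), *Rpl37* (0.05) and *Rpl34* (0.06) varied least. *Rpl22l1* (0.55), *Rpl36al* (0.45), *Rplp2* (0.41), *Rps19* (0.38) and *Rpsa* (0.38) varied most, and each of these had a mean log2 level under 7. *Rps3a1* was the bright exception, with an SD of 0.25 at a mean level of 12.28. These are descriptions, and a probe's SD depends on its level.

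**Figure D4:**
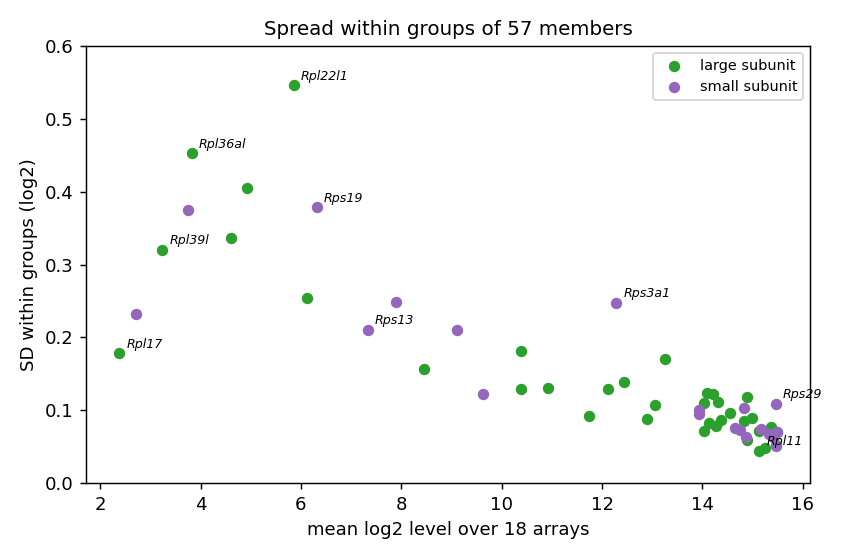
SD within groups (log2, vertical axis) against the mean log2 level over the 18 arrays (horizontal axis) for the 57 members, large and small subunit in colour. The SD is highest for *Rpl22l1* (0.55) and mostly falls at levels above it, down to 0.04 for *Rpl11*. Dimmer members than *Rpl22l1* lie below it, such as *Rpl17* (0.18) at the lowest level. *Rps3a1* lies above other members of its level.

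*Rps3a1*, a small subunit protein that contacts initiation factors, is a member that the rule for description did not pick, and it was added after its values were seen. It was at 12.46, 12.60, 12.28 and 12.11 on the untreated arrays, between 11.89 and 12.52 (median 12.42) with GL2 siRNA and between 11.87 and 12.46 (median 12.33) with dystrophin siRNA. The lowest values stood on GL2 siRNA arrays 6 and 7 and on dystrophin siRNA array 7. Of its variance within groups, 68.5% lay between the 4 sets of arrays. For *Rpl39* this share was 88.1% and for *Rpl32* 77.7%, and for *Rpl7* it was 2.26%. The median over the 49 members was 33.1% and over all detected probes 41.0%. With median centring these medians were 56.4% and 41.8%, and with no normalization 51.6% and 38.6%, so that their order turns with the scaling. Dividing so few arrays into 4 sets takes up part of the variance even where the sets do not differ. For that reason, and since the sets come from these same data, the shares are descriptions.

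The mean level of the 49 members on an array hardly varied after quantile normalization, which gives every array the same distribution. It lay at 13.22, 13.24, 13.25 and 13.25 on the untreated arrays, between 13.20 and 13.30 (median 13.24) with GL2 siRNA and between 13.19 and 13.25 (median 13.23) with dystrophin siRNA. With the arrays centred on their median in place of quantiles it spread more, at 13.13, 13.40, 13.29 and 13.25 on the untreated arrays, 13.13 to 13.35 with GL2 siRNA and 13.13 to 13.37 with dystrophin siRNA. The SD of the mean within groups was 0.03 with quantiles and 0.09 with median centring, and 22.7% and 71.1% of its variance lay between the sets. For the mean over all 57 members these shares were 58.0% and 72.2%, so the contrast depends on the members averaged. With median centring the 4 highest means of the 49 members were all in set 2. They were those of untreated array 2, GL2 siRNA arrays 2 and 3 and dystrophin siRNA array 2.

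The same arrays were high for other bright probes. Deviations from the group means were correlated across the 18 arrays. For the median-centred mean of the members and that of the other bright probes Pearson's correlation was 0.94. For the same mean of the members and the log2 median signal it was 0.83. Both values are descriptions over arrays that share a normalization. The median signal of the arrays of set 2 was 103.0 to 111.8, and it was 92.6 to 104.2 in the other sets. The part of signal level in the spread of the members was not tested. With median centring the median change of the members moved to -0.08 with dystrophin siRNA and -0.09 with GL2 siRNA against untreated, and to 0.02 between the siRNAs, and 14, 18 and 34 of the 57 members had a change above 0.

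**Figure D5:**
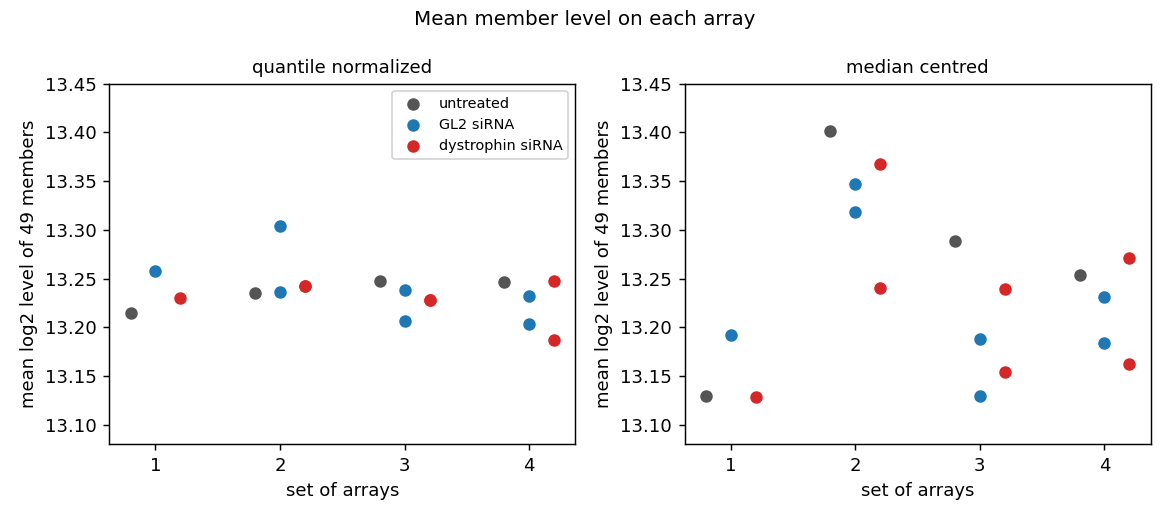
Mean log2 level of the 49 members detected on all arrays (vertical axis) by set of arrays (horizontal axis), after quantile normalization on the left and median centring on the right, with a point for each array in the colour of its group (a pair of dystrophin siRNA points coincides in sets 2 and 3 on the left). With quantiles all arrays lie between 13.19 and 13.30, and with median centring set 2 holds the highest values.

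Single arrays stood at the edge of their group for many members at a time. Dystrophin siRNA array 7 was the lowest of its group for 20 of the 49 members and GL2 siRNA array 6 for 17. GL2 siRNA array 3 was the highest for 19 and dystrophin siRNA array 2 for 15. Within sets the median difference of the 49 members between the siRNAs was -0.01, 0.00, 0.03 and 0.03 in sets 1 to 4, and that between dystrophin siRNA and untreated was 0.02, 0.00, 0.00 and -0.07. Between GL2 siRNA and untreated it was 0.00, 0.03, -0.04 and -0.08. With median centring the values were -0.01, -0.10, -0.06 and -0.09 for dystrophin siRNA against untreated and 0.02, -0.09, -0.14 and -0.10 for GL2 siRNA against untreated. Each set has a single untreated array, and which sets lie below 0 changes with the scaling.

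Genes that act with the ribosome were counted for context, from lists chosen with earlier results of these data known. The counts stand beside the shares of all probes that passed, 0.907% between dystrophin siRNA and untreated, 0.733% between GL2 siRNA and untreated and 3.76% between the siRNAs (1.6% higher and 2.16% lower). Of the 19437 detected probes, 2.01%, 1.65% and 8.27% passed in the same order, the last with 3.52% higher and 4.75% lower. Of 17 other mRNAs of the 5′TOP class with a probe, such as elongation factors and poly(A)-binding protein, none passed in any comparison, and their median changes were -0.02, 0.00 and -0.01 in the order used above. Of 6 elongation factor genes 1 was lower between the siRNAs: *Eef1e1*, a scaffold protein of the tRNA synthetase complex, with a change of -0.60 (limma adjusted p = 0.0023). Of 25 initiation factor genes 2 were lower between the siRNAs, *Eif1ax*, which helps the small subunit find the start codon, with a change of -0.37 (adjusted p = 0.029) and *Eif4g2*, a scaffold for translation without the cap-binding factor, with -0.30 (adjusted p = 0.042), and none passed in the comparisons with untreated.

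Genes that build ribosomes were counted next. Of 12 genes of RNA polymerase I and its factors none passed in any comparison. Of 40 biogenesis genes 1 was higher with GL2 siRNA than in untreated myotubes, *Mphosph10*, a component of the particle that processes small subunit RNA, by 0.78 (limma adjusted p = 0.041), and 1 was higher with dystrophin than with GL2 siRNA, *Rrp1b*, a nucleolar protein, by 0.37 (adjusted p = 0.0055). Of all probes 0.339% were called higher in the former comparison and 1.6% in the latter. Mitochondria have ribosomes of their own with a separate set of nuclear-encoded proteins, and of their 76 genes 2 were lower between the siRNAs, *Mrpl42* with a change of -0.32 (limma adjusted p = 0.020) and *Mrpl37* with -0.26 (adjusted p = 0.042). The medians of that list were 0.04, 0.13 and -0.08, and of the biogenesis list 0.08, 0.16 and -0.05, while the members stood at -0.04, -0.05 and 0.01.

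Of 15 regulators of ribosome synthesis with a probe, 3 passed between the siRNAs, beside 3.76% of all probes. *Cdkn1a*, the cell cycle inhibitor p21, was lower with a change of -0.91 (limma adjusted p = 1.2e-05), *Mxd1*, an antagonist of MYC, was lower with -0.60 (adjusted p = 0.011), and *Eif4ebp1*, which blocks the cap-binding factor until mTOR phosphorylates it, was higher by 0.34 (adjusted p = 0.048). Against untreated myotubes only *Cdkn1a* passed, with a change of -0.61 with dystrophin siRNA (adjusted p = 0.016), beside 0.63% of all probes called lower there.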

How the data were processed

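RNA of 18 mouse primary myotube cultures was measured on bead arrays of 46632 probes. The deposited tables hold, for each array, the average bead intensity of every probe as BeadStudio exported it (linear, background not corrected) and the p-value of its detection. They also deposited intensity values processed, by their methods, with background correction after Irizarry et al., log2 transformation and quantile normalization in lumi, which the submitters' processing notes name without a version.

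The deposited bead signals were used here. In R 4.3.3 with limma 3.58.1, signals were background corrected with the RMA model, log2 transformed and normalized by quantiles. The median absolute difference from the authors' values was 0.0025 on the log2 scale and the largest 0.022. All 18 arrays entered a linear model with group as the factor (lmFit, eBayes), and the Benjamini-Hochberg adjustment took in all 46632 probes, with no filter, at a threshold of 0.05. No test was made over the members as a list. The fit was run on simulated data with independent arrays, which do not reproduce cultures that share an occasion. Tables and figures were made with Python 3.11.15.

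Of the probes 29976 had 1 symbol, 10 several and 16646 none, and 11 symbols were updated. Members, lists and the rule for named genes were chosen with earlier results of these data known. The rule names members that pass, the 5 highest and lowest by level and by SD, paralogues, members whose probes differ in passing, and members whose groups do not overlap. Start windows are from RefSeq. Detection means a detection p under 0.05. The precision is limited by the number of arrays and of occasions on which cultures were prepared.

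The siRNA groups share array numbers 1 to 7 in their titles, and the pairing was checked on the data: deviations from the group means correlated at 0.35 to 0.51 in 7 of 7 same-numbered pairs, 6 of which correlated best with their own number. Against untreated arrays, over 4 pairs, the correlations of dystrophin siRNA arrays were -0.06 to 0.22 and those of GL2 siRNA arrays -0.08 to 0.28, so these samples were not taken as paired. Alternatives were 2 other background settings, 2 other normalizations, the authors' values, a filter on detection on at least 4 arrays, a fit of the compared groups alone, blocks by array number and by set, the second probe of a gene, members without those among the brightest 100 probes, and each array left out.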

Additional observations from a re-analysis of the deposited data

Results flagged for a closer look

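In 72 groups of 4 or 7 arrays, an array stood apart from the rest of its group by Dixon's criterion in 7 cases, and chance alone gives about 1 in 20. In untreated myotubes *Rps13* was at 6.47 on array 1, where the other 3 lay between 7.07 and 7.18. *Rpl22l1* was at 6.63 on untreated array 2, where the others lay between 5.85 and 5.98. *Rpl39l*, detected on no array, was at 3.87 on untreated array 1, with the others between 3.39 and 3.46. Of the bright members *Rpl37* was at 15.43 on GL2 siRNA array 7, below the others at 15.49 to 15.50. *Rpl11* was at 15.02 on GL2 siRNA array 6, below the others at 15.09 to 15.14. *Rpl35* was at 15.35 on dystrophin siRNA array 2, above the others at 15.20 to 15.26. The mean level of the 49 members was 13.19 on dystrophin siRNA array 7, where the other arrays of that group lay between 13.23 and 13.25. The small gaps of the bright members are below 0.1 on the log2 scale.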

How the results depend on the processing

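Without background correction 1 member was called higher between dystrophin siRNA and untreated (*Rps13*) and 2 lower between the siRNAs (*Rpl21*, *Rpl27a*). In that setting 749 and 2636 of all 46632 probes were called in these comparisons. The same counts, 1 and 2, and the same members came with the filter on detected probes, which tests fewer probes. That filter called 737 and 2713 of 19437 probes. With the replicate block, that is, pairing by array number, 1 member was called lower between the siRNAs (*Rpl21*, limma adjusted p = 0.047). The block called 2428 of 46632 probes there and changed no other call of a member's brightest probe. With the second brightest probe 1 was lower (*Rpl21*). Leaving out each array in turn, the count of members called ran from 0 to 1 for both (*Rps13* without dystrophin siRNA array 7, *Rpl21* without GL2 siRNA array 1 or dystrophin siRNA array 6), and the cause was not tested. Those fits called 348, 1600 and 1565 of 46632 probes in the same order. Median changes against untreated moved to -0.082 (dystrophin siRNA) and -0.089 (GL2 siRNA) with median centring, to -0.081 and -0.12 with no normalization, and to -0.085 and -0.093 with median centring and the sets as a block, an alternative added after the data were seen. With the replicate block they moved the other way, to -0.010 and -0.016, with 25 of 57 members above 0 in each, and with no background correction to -0.024 and -0.043. Between the siRNAs the median moved to 0.048 with no normalization, where that of all probes was 0.03. The SD of the mean level of the 49 members was 0.088 with median centring and 0.10 with no normalization, and the share between sets 71.1% and 53.1%. All other counts of called members stayed at 0 in the settings run. The third *Rpl21* probe fell short between the siRNAs only with no normalization (-0.40, adjusted p = 0.056). Of the members that every array detected, *Rps19* and *Rpl14* had the widest intervals, and compression of bright probes was not tested.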
